A study of Homo sapiens with 3 samples.

Results

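Interferon-stimulated genes and the IRF factors that control them were followed in T47D, a luminal human breast cancer line whose cells carry estrogen receptor α. The set was a list of 48 genes. A gene was taken when a probe set other than a control carried its symbol and no other, and its value was the mean over such probe sets. This gave 47 genes on 74 probe sets, of 19775 genes measured; 26 members had 1 probe set and 21 had more. STAT2 was not analysed here. The rule lists genes by name and uses no measured value, but the list was drawn up with earlier results of these arrays known.

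There were 3 Affymetrix HG-U133 Plus 2 arrays with 1 array per treatment. All cells were kept for 4 h in medium with 10% charcoal-stripped serum, which is depleted of steroid hormones, and were then treated for 3 h. The vehicle cells received 0.1% ethanol, the second group estradiol at 1 µM, and the third group ERα17p, a synthetic peptide taken from the sequence of estrogen receptor α, also at 1 µM. Whether ethanol was also added to the treated cells was not stated in the labels. With 1 array per treatment no difference has an error between cultures and no test was possible. Each SD below is taken between the n probe sets of its gene and covers differences between them only.

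Interferons are secreted proteins that act through cell surface receptors, JAK kinases and STAT factors. STAT proteins join IRF9 to bind the interferon-stimulated response element (ISRE), while STAT dimers bind the gamma-activated site (GAS). IRF1, IRF7 and other IRF proteins bind ISRE-like sequences as well, and IRF1 is also a target of NF-κB. The induced genes encode RNA-binding proteins, nucleases, GTPases, membrane proteins and a ubiquitin-like modifier that restrict viruses. Epithelial tumour cells often express part of this set without added interferon.

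The deposited values were taken as log2, and every probe set carries its own unstated baseline. Levels therefore cannot be compared between genes, and only differences between arrays are read. The vehicle array stood apart. Over all genes its values had an SD of 0.371, against 0.130 for estradiol and 0.139 for ERα17p. For ACTB the 3′ minus 5′ control value was 0.52 with vehicle, −0.29 with estradiol and −0.17 with ERα17p, and for GAPDH it was 0.39, −0.10 and 0.01. The 3′ minus 5′ values reflect RNA integrity and labelling, while the SD is that of values relative to the unstated baseline. Both move with every difference from the vehicle given below, and their part in those differences was not tested. The ERα17p minus estradiol comparison does not use the vehicle array.

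The luminal identity could not be checked from absolute levels. Of 12 luminal markers measured, 2 were at least 1.5-fold higher and 2 lower than vehicle on each treated array. The summed value of the 12 was −0.36 with vehicle, 0.55 with estradiol and 0.27 with ERα17p. PGR and CDH1 were the higher genes, and SPDEF and MUC1 the lower. Within the sums PGR alone stood at −0.98, 0.45 and −0.10. Of all genes 6.48% were higher and 8.42% lower than vehicle by this size with estradiol, and 6.88% and 8.76% with ERα17p. All marker counts against vehicle are to be read beside these shares. Of 12 leukocyte markers 0 differed by 1.5-fold in any comparison, with sums of −0.65, −0.27 and −0.75. Of 10 fibroblast and endothelial markers, with sums of −1.51, −0.34 and −0.01, only LUM was higher than vehicle by that size, by 1.05 ± 0.97 and 1.43 ± 1.53 (SD, n = 2 probe sets), and COL1A1 was lower, on the estradiol array alone. The part of other cell types in the results was not tested, and in bulk RNA fewer cells of a type and less RNA per cell cannot be told apart.

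The members split into genes higher and genes lower than vehicle on the treated arrays, and promoters on both sides carried the same response element. The sequences below show the bases before the annotated start for 3 members that were higher on both treated arrays and 4 that were lower on the ERα17p array. They come from RefSeq on GRCh38.p14, at the first listed start of each gene and on the gene's own strand. Capitals mark every match, on either strand, to GAAA followed by any 2 bases and GAAA, a core of the ISRE, or to TTC, any 3 bases and GAA, the GAS. The higher genes were IFIT1 at chr10:89392373-89392622 (plus strand), which encodes a binder of foreign RNA, GBP1 at chr1:89065209-89065458 (minus strand), a guanylate-binding GTPase, and SAMD9 at chr7:93117980-93118229 (minus strand), an antiviral factor.
IFIT1: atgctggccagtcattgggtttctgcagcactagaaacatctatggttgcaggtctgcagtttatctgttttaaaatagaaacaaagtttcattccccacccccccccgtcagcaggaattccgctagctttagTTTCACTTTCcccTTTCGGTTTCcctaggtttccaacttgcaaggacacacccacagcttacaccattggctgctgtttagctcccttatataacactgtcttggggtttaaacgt
GBP1: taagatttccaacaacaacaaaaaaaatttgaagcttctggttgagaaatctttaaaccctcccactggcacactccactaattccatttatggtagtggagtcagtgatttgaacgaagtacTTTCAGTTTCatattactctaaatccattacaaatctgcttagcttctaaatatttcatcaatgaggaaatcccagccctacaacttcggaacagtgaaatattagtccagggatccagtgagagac
SAMD9: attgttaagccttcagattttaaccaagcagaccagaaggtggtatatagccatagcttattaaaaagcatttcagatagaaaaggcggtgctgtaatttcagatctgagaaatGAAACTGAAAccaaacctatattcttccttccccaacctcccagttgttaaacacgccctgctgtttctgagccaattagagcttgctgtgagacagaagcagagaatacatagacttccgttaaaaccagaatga

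The lower genes were IRF1 at chr5:132490774-132491023 (minus strand), a transcription factor, ISG20 at chr15:88638766-88639015 (plus strand), an RNA exonuclease, HERC5 at chr4:88456869-88457118 (plus strand), the main ligase for ISG15 in human cells, and IFI27 at chr14:94110486-94110735 (plus strand), a small membrane protein.
IRF1: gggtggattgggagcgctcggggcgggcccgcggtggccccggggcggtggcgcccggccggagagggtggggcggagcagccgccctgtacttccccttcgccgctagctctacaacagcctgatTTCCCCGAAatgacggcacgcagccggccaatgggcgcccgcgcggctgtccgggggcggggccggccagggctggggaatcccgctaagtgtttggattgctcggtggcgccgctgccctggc
ISG20: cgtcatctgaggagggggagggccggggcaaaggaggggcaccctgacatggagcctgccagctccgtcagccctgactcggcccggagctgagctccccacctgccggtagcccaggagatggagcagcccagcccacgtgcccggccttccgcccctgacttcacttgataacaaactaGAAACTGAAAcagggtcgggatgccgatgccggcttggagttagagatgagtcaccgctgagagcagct
HERC5: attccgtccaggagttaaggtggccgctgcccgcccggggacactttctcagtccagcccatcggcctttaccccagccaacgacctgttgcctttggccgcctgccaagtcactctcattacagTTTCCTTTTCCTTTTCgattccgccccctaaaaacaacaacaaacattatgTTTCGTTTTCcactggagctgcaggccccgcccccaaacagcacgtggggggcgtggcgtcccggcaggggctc
IFI27: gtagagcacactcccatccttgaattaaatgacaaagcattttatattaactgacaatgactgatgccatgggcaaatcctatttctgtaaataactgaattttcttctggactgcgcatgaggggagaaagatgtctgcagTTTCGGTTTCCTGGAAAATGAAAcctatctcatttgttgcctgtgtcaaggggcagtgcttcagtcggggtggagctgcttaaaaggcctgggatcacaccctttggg
IFIT1 held 2 ISRE matches, which began 116 and 103 bases before its start, and HERC5 held 3, at 125, 119 and 74 bases. GBP1 held 1 ISRE match at 127 bases, SAMD9 1 at 136 and ISG20 1 at 69. IRF1 held no ISRE match in this window and 1 GAS, at 124 bases. In IFI27 the GAS match overlapped an ISRE match on each side, so its capitals run together.

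On the estradiol array, IRF1, ISG20, LGALS3BP and the IFITM genes were lower than on the vehicle array, while IFIT1, GBP1 and SAMD9 were higher. At least 1.5-fold lower were 13 of 47 members, where 8.42% of all genes were. At least 1.5-fold higher were 6 members, where 6.48% of all genes were. The other 28 lay between. The median over the members was −0.03 and over all genes −0.00, so the set as a whole had no common direction. At 2-fold the counts were 3 lower and 1 higher, beside 1.63% and 1.57% of all genes.

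On the ERα17p array the same contrast with vehicle gave 15 members at least 1.5-fold lower, beside 8.76% of all genes, and 4 higher, beside 6.88%. The median of the members was −0.18 and that of all genes 0.00. The members' median was −0.06 without probe sets ending in _x_at or _s_at, a mark of probes that can read related transcripts, and −0.03 over single probe sets. At 2-fold, 11 members were lower and 2 were higher, beside 1.87% and 1.9% of all genes. Among these IFITM1, IFI6, IRF7 and IFITM3 were only just past 2-fold, at −1.02 to −1.07. With estradiol HERC5, MX1, IRF9 and IFITM2 fell just short of it, at −0.91 to −0.97, so the 2-fold counts depend on the cutoff. Both treated arrays were set against 1 vehicle array, so their differences from it share that array's error and do not count as repeats of each other.

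**Figure D1:**
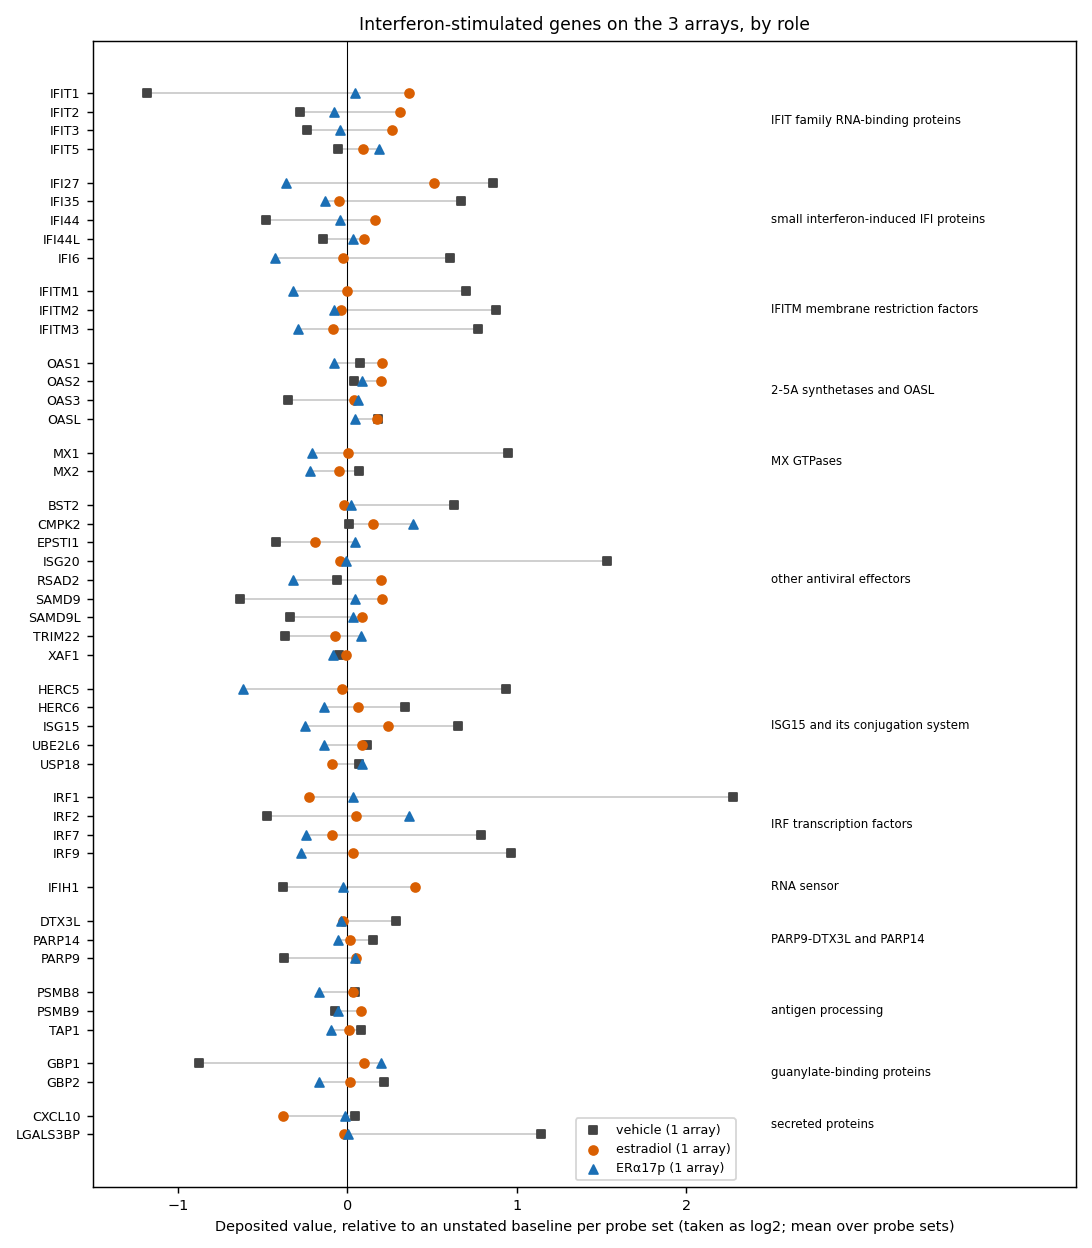
Deposited value of each of the 47 members on the vehicle (squares), estradiol (circles) and ERα17p (triangles) arrays, relative to an unstated baseline per probe set and averaged over probe sets, grouped by role; the x axis is taken as log2 and each symbol is 1 array. The vehicle squares run from −1.18 for IFIT1 to 2.28 for IRF1, while the treated arrays stay between −0.62 and 0.51.

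Across the members the vehicle values had an SD of 0.64, against 0.16 for estradiol and 0.19 for ERα17p. The treated arrays lay near the baseline for most members, and the vehicle array lay further from it. The baseline is unstated, so which of the arrays moved cannot be read from these values.

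Transcription factors came first in size. IRF1 stood at 2.28 with vehicle, −0.22 with estradiol and 0.03 with ERα17p. Its differences from vehicle were −2.50 ± 0.99 and −2.24 ± 0.48 (SD, n = 2 probe sets), and it was the most strongly lowered member in both, at 5.65-fold with estradiol if the log base is 2. Its probe sets gave −3.20 and −1.80 for estradiol and −2.58 and −1.91 for ERα17p, so both showed the direction. IRF9, the DNA-binding partner of the STAT proteins, had values of 0.97 with vehicle, 0.03 with estradiol and −0.27 with ERα17p. IRF7, which drives interferon genes in infected cells, had 0.79, −0.09 and −0.24. Both were lower on the treated arrays, IRF9 by −0.93 and −1.24 and IRF7 by −0.88 and −1.03. A further probe set that names IRF9 together with RNF31 was outside the rule and gave −1.19 and −1.12. IRF2, which competes with IRF1 for the same sites, ran the other way, with −0.47, 0.05 and 0.36, and differed from vehicle by 0.52 and 0.84.

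The IFITM genes encode small membrane proteins that block the entry of enveloped viruses. IFITM1 stood at 0.70 with vehicle, −0.00 with estradiol and −0.32 with ERα17p. IFITM2 stood at 0.88, −0.04 and −0.08. IFITM3 stood at 0.77, −0.08 and −0.29. All of them were lower on both treated arrays, at −0.70 to −0.91 for estradiol and −0.96 to −1.07 for ERα17p. Each rests on 1 probe set whose identifier ends in _x_at or _s_at, and these genes are close copies. A probe set that names IFITM2 and IFITM1 together, outside the rule, gave −0.79 and −0.99, so the members of this family cannot be told apart with certainty here.

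ISG15, the ubiquitin-like modifier, and its ligase HERC5 were lowest on the ERα17p array. HERC5 stood at 0.94 with vehicle, −0.03 with estradiol and −0.62 with ERα17p. ISG15 stood at 0.65, 0.24 and −0.25. The differences from vehicle were −0.97 and −1.55 for HERC5 and −0.41 and −0.90 for ISG15, on 1 probe set each. HERC6, a relative and chromosomal neighbour of HERC5, differed by −0.28 ± 0.57 and −0.48 ± 0.75 (SD, n = 2). Its probe sets did not agree, with −0.68 and 0.13 for estradiol and −1.01 and 0.04 for ERα17p. The conjugating enzyme UBE2L6 stood at −0.03 and −0.25 against vehicle, and USP18, which removes ISG15 and damps receptor signalling, at −0.16 and 0.01. With ERα17p, ISG15 and HERC5 passed 1.5-fold and the remaining enzymes did not as gene means, although 1 HERC6 probe set did.

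Among small interferon-induced proteins, IFI27 showed the widest separation of the treated arrays. Its values were 0.86 with vehicle, 0.51 with estradiol and −0.36 with ERα17p. IFI6, a mitochondrial and endoplasmic reticulum protein, had 0.60, −0.03 and −0.42, and IFI35 had 0.67, −0.05 and −0.13. IFI27 differed from vehicle by −0.35 with estradiol and −1.22 with ERα17p, IFI6 by −0.63 and −1.03, and IFI35 by −0.72 and −0.80. IFI44 was on the other side, at 0.65 ± 0.85 and 0.44 ± 0.78 (SD, n = 2), and 1 of its probe sets stood at 0.04 and −0.11, so the other carried the difference. Its neighbour IFI44L stood at 0.25 and 0.18.

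Of the 4 IFIT genes, neighbours on chromosome 10, 2 were at least 1.5-fold higher than vehicle with estradiol, IFIT1 and IFIT2, and 1 with ERα17p, IFIT1. IFIT1 stood at −1.18 with vehicle, 0.36 with estradiol and 0.05 with ERα17p, a difference of 1.55 and 1.23 on its 1 probe set. IFIT2, which acts in a complex with IFIT1, stood at −0.28, 0.31 and −0.08, and IFIT3, a further partner that stabilises IFIT1, at −0.24, 0.26 and −0.04. Their differences from vehicle were 0.59 ± 0.44 and 0.20 ± 0.50 for IFIT2 and 0.50 ± 0.69 and 0.20 ± 0.57 for IFIT3 (SD, n = 2 each). One probe set of each gene carried most of it, 0.90 for IFIT2 and 0.99 for IFIT3 with estradiol, while the other gave 0.28 and 0.01. With ERα17p that other probe set lay below vehicle, at −0.15 for IFIT2 and −0.20 for IFIT3. IFIT5 stood at 0.15 ± 0.04 and 0.24 ± 0.11 (SD, n = 2), under 1.5-fold.

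GBP1 was measured by 4 probe sets and stood at −0.87 with vehicle, 0.10 with estradiol and 0.20 with ERα17p. Its differences were 0.97 ± 0.55 and 1.07 ± 0.59 (SD, n = 4), with 3 probe sets between 1.14 and 1.56 in both comparisons together and 1 at 0.15 and 0.22. GBP2, its neighbour, stood at −0.20 ± 0.27 and −0.38 ± 0.48 (SD, n = 2). SAMD9 had −0.63, 0.20 and 0.04 on the arrays, and differed by 0.83 ± 0.44 and 0.67 ± 0.32 (SD, n = 2). SAMD9L, its paralogue and neighbour, differed by 0.43 ± 0.46 and 0.37 ± 0.26 (SD, n = 3). The RNA sensor IFIH1, known as MDA5, had −0.38, 0.40 and −0.02, and all 3 of its probe sets were between 0.74 and 0.84 for estradiol. For ERα17p these probe sets spread from −0.02 to 0.79, with a mean of 0.35.

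ISG20 and LGALS3BP were the largest lowered members after IRF1 with estradiol. ISG20 stood at 1.53, −0.04 and −0.01, and differed by −1.57 ± 0.19 and −1.53 ± 0.03 (SD, n = 2). LGALS3BP, a secreted glycoprotein that binds galectins, stood at 1.14, −0.02 and 0.00, and differed by −1.17 and −1.14. For both genes the treated arrays lay within 0.04 of each other, unlike HERC5 and IFI27. MX1, a GTPase that traps viral nucleoproteins, stood at 0.95, 0.00 and −0.21, a difference of −0.95 and −1.15, while its neighbour MX2 differed by −0.12 and −0.29. BST2, which tethers budding virus to the cell, differed by −0.65 and −0.61. CXCL10, a chemokine for T cells, was not 1.5-fold different, at −0.42 and −0.06.

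**Figure D2:**
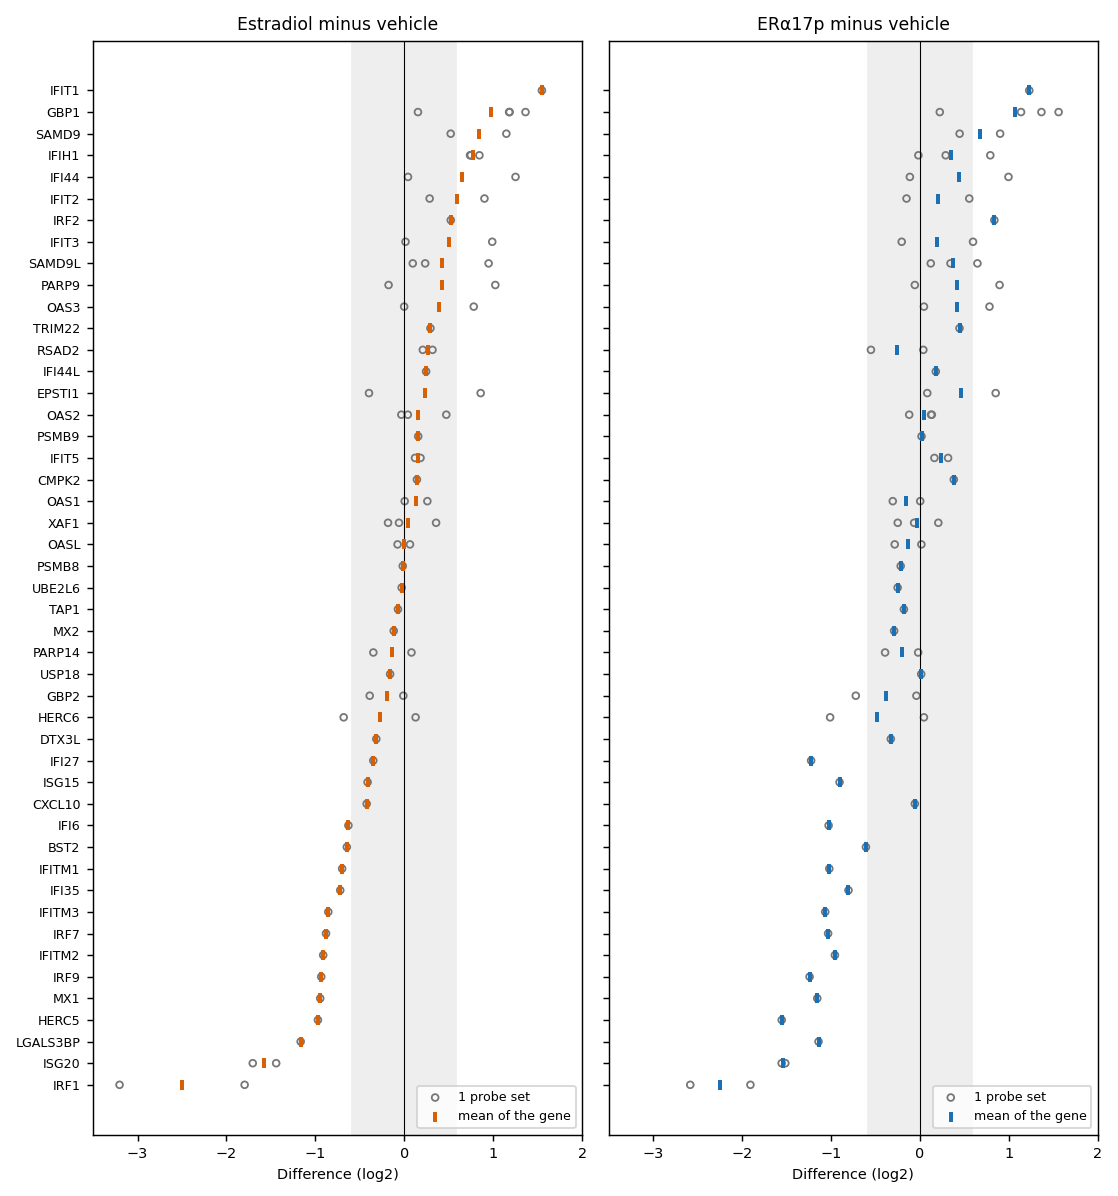
Difference from the vehicle array (log2, x axis) for estradiol (left) and ERα17p (right), with 1 row per member ordered by the estradiol difference; open circles are single probe sets, the bar is the mean of the gene and the grey band is under 1.5-fold. IRF1 and ISG20 lie outside the band with both probe sets in both panels, whereas IFIT3, IFI44, PARP9 and EPSTI1 have 1 probe set inside it.

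The remaining effectors stayed nearer to vehicle. RSAD2 differed from it by 0.26 ± 0.08 with estradiol and −0.26 ± 0.42 with ERα17p (SD, n = 2), and CMPK2, a nucleotide kinase, by 0.14 and 0.38. TRIM22, a ubiquitin ligase, differed by 0.29 and 0.45, and EPSTI1 by 0.23 ± 0.89 and 0.47 ± 0.54 (SD, n = 2). XAF1, which binds the apoptosis inhibitor XIAP, differed by 0.04 ± 0.28 and −0.04 ± 0.23 (SD, n = 3). None of these 5 reached 1.5-fold as gene means. For EPSTI1 1 probe set did, at 0.86 and 0.85, while the other stood at −0.40 and 0.08. The oligoadenylate synthetases, which activate RNase L, and the related OASL had 0 of 4 members at 1.5-fold on either array as gene means. Their differences ran from −0.01 to 0.39 for estradiol and −0.15 to 0.41 for ERα17p. OAS3 had the largest, 0.39 ± 0.55 and 0.41 ± 0.52 (SD, n = 2), and its probe sets did not agree. One stood at 0.78 in both comparisons, past 1.5-fold, and the other at −0.00 and 0.05. TAP1, PSMB8 and PSMB9, the peptide transporter and immunoproteasome subunits, had 0 of 3, with −0.07, −0.02 and 0.16 for estradiol and −0.18, −0.22 and 0.02 for ERα17p. Of all genes 6.48% were higher and 8.42% lower by 1.5-fold with estradiol, and 6.88% and 8.76% with ERα17p. A count of 0 in such small groups is near that background. PARP9 and its partner DTX3L, neighbours on chromosome 3, stood at 0.42 ± 0.85 (SD, n = 2) and −0.31 for estradiol, and PARP14 at −0.13 ± 0.30 (SD, n = 2). The range over the 3 arrays was under 0.25 for 10 members, among them OAS2, OASL, XAF1, USP18, TAP1 and both immunoproteasome genes, where 41.8% of all genes had so small a range. Whether a flat gene was unexpressed or constant cannot be read from these values.

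Probe sets of 1 gene often differed. Over the 21 members with more than 1 probe set, the range between probe sets had a median of 0.62 for estradiol and 0.68 for ERα17p. In 0 of these members did probe sets pass 1.5-fold in opposite directions. All probe sets passed in 3 of them for estradiol, IFIH1, IRF1 and ISG20, and in 2 for ERα17p, IRF1 and ISG20. In 10 and 11 others only some did. If a gene counts only when every probe set passes, 2 members were higher in each comparison. These were IFIT1 with IFIH1 for estradiol and IFIT1 with IRF2 for ERα17p, and 13 and 15 members were lower. A member with 1 probe set cannot fail this rule once it passes 1.5-fold. Among the lower members only IRF1 and ISG20 had more than 1 probe set. Of the higher members with estradiol all but IFIT1 had more than 1, so the rule bears mostly on the higher side. All genes under this rule gave 3.31% and 3.81% higher, and 6.68% and 6.76% lower. Without the probe sets ending in _x_at or _s_at, 8 and 9 of 37 members were lower, beside 7.88% and 8.04% of the genes left, because IFITM1, IFITM2, IFITM3, IFI35, IRF7 and, for ERα17p, ISG15 have no other.

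ERα17p and estradiol were set against each other at 1 µM and 3 h, and most members were slightly lower with the peptide. IFI27 differed by −0.87, a fold of 1.83, and was the only member past 1.5-fold, where 0.607% of all genes were lower and 0.521% higher by that size. HERC5 followed at −0.58, RSAD2, which encodes viperin, at −0.52 ± 0.34 (SD, n = 2), ISG15 at −0.49, IFIH1 at −0.42 ± 0.42 (SD, n = 3) and IFI6 at −0.40. At a smaller size of 0.32 on the log2 scale, 7 members were lower and 1 was higher, beside 4.01% and 4.67% of all genes. Below 0 lay 34 of 47 members, 72.3%, where 48.4% of all genes did, and the median was −0.13 against 0.01. The SD of this difference over all genes was 0.197, so most members lie inside the general spread of the comparison.

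**Figure D3:**
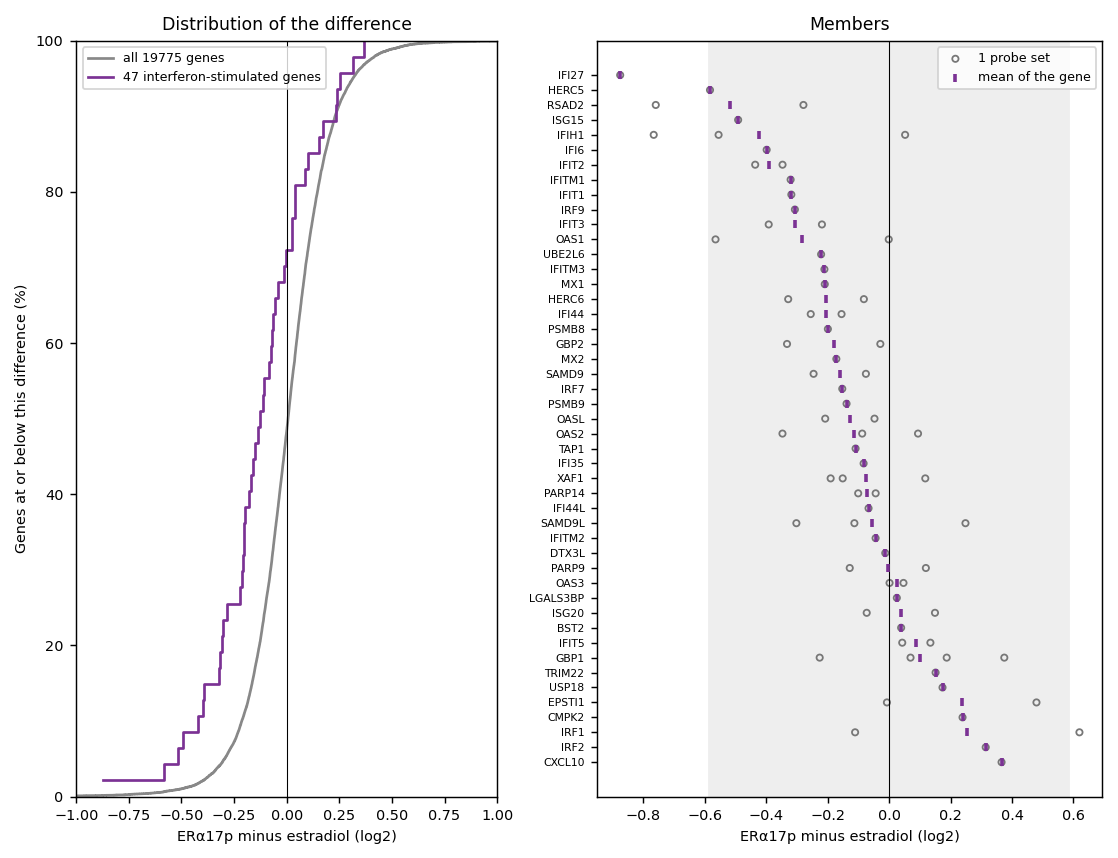
ERα17p minus estradiol (log2). Left, the cumulative share of genes (%) at or below each difference, for all 19775 genes and for the 47 members; right, each member as a bar, its probe sets as open circles and the band under 1.5-fold in grey. The members' curve lies left of that of all genes below 0, and IFI27 at −0.87 is the only bar outside the band.

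Values below 0 were spread over several families. All 5 of the small IFI proteins were below 0, as were all 3 IFITM genes, both MX genes, all 3 antigen processing genes and 4 of the 5 ISG15 system genes. Of all genes 48.4% were. Near or under that share were 4 of 9 other antiviral effectors, 2 of 4 IRF factors, 1 of 2 guanylate-binding proteins and 0 of 2 secreted proteins. The antigen processing genes were only −0.11 to −0.20, and the IFITM probe sets may read each other's transcripts. IFIT1, IFIT2 and IFIT3 stood at −0.32, −0.39 ± 0.06 and −0.31 ± 0.12 (SD, n = 2 for the latter genes), and IFIT5 at 0.09 ± 0.06. On the other side CXCL10 stood at 0.37, IRF2 at 0.31, IRF1 at 0.25 ± 0.52 (SD, n = 2), CMPK2 at 0.24 and EPSTI1 at 0.24 ± 0.34 (SD, n = 2). RSAD2 and CMPK2, neighbours on chromosome 2, therefore had opposite signs. For IRF1 the probe sets themselves differed in sign, at 0.62 and −0.11.

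The order of the arrays sums up these patterns. Vehicle highest, estradiol between and ERα17p lowest was the order of 20 of 47 members, 42.6%, where 20.6% of all genes had it. These were DTX3L, GBP2, HERC5, HERC6, IFI27, IFI35, IFI6, all IFITM genes, IRF7, IRF9, ISG15, both MX genes, OASL, PARP14, PSMB8, TAP1 and UBE2L6. Estradiol highest and vehicle lowest was the order of 11 members, 23.4% beside 18.7% of all genes, with IFIT1, IFIT2, IFIT3, IFI44, IFI44L, IFIH1, OAS2, PARP9, PSMB9 and both SAMD9 genes. In both of these groups the ERα17p value is below the estradiol value. The order takes no minimum difference. OASL, PARP14, PSMB8 and TAP1 in the first group and IFI44L, OAS2 and PSMB9 in the second had a range under 0.25 over the arrays. The order of neighbouring arrays is a description, since the spread between cultures is unknown.

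The rest of the pathway was read from lists chosen for their roles. Their 1.5-fold counts against vehicle are to be read beside all genes, of which 6.48% were higher and 8.42% lower with estradiol, and 6.88% and 8.76% with ERα17p. Of 18 measured interferon genes 0 were 1.5-fold different in any of the comparisons, and IFNB1, the gene of interferon β, stood at −0.34 for estradiol and −0.16 for ERα17p against vehicle. Of 14 receptors, kinases and STAT factors, estradiol had 1 higher and 1 lower, and ERα17p had 0 higher and 2 lower. TYK2, the kinase of the type I receptor, stood at −0.69 and −0.98, STAT5A at −0.44 and −0.65, and JAK1 at 0.79 ± 0.76 and 0.51 ± 0.66 (SD, n = 5). IL10RB, a receptor subunit shared with interleukin 10, stood at −0.55 and −0.23. The type I receptor subunits IFNAR1 and IFNAR2, named for their role and not their size, stood at 0.01 ± 0.30 and −0.16 ± 0.50 for estradiol (SD, n = 4 and 3). IFNAR1 and IFNAR2 stayed under 1.5-fold with ERα17p too, at −0.15 ± 0.31 and −0.17 ± 0.40.

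Of 17 nucleic acid sensors and adaptors, 1 was lower for estradiol and 2 for ERα17p, beside 8.42% and 8.76% of all genes, and 0 were higher, beside 6.48% and 6.88%. These counts are close to the background. IRF3, the factor that sensors activate, stood at −0.73 and −0.77, and DHX58, a regulator of the RNA sensors, at −0.52 and −0.78. TLR3, an endosomal sensor of double-stranded RNA, stood at 0.58 ± 0.47 and 0.28 ± 0.47 (SD, n = 3), and the kinase IKBKE at −0.48 ± 0.52 and −0.52 ± 0.46 (SD, n = 2). RIGI, a cytosolic RNA sensor named for its role and not its size, stood at 0.37 ± 0.57 and 0.41 ± 0.30 (SD, n = 3). Of 7 other IRF genes and IRF2-binding cofactors only IRF3 reached 1.5-fold. Among 13 negative regulators, 2 were higher in each comparison and 0 and 2 were lower. CISH, a SOCS family inhibitor, stood at −0.42 with vehicle, 0.31 with estradiol and −0.56 with ERα17p. It was higher with estradiol by 0.73 ± 0.15 and lower with ERα17p than with estradiol by −0.87 ± 0.06 (SD, n = 3). PTPN11, a phosphatase, stood at 1.02 ± 1.30 and 1.03 ± 1.33 (SD, n = 6), with a spread larger than its mean. PIAS1 stood at 0.54 ± 1.07 and 0.75 ± 0.98 (SD, n = 3), again with a spread larger than the mean. PTPN6, a phosphatase also called SHP-1, stood at −0.48 and −0.89, and PIAS4 at −0.39 ± 0.29 and −0.64 ± 0.02 (SD, n = 2).

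Of 33 other interferon-induced genes outside the 47, 3 were higher with estradiol and 0 lower, against 5 and 1 with ERα17p. Of all genes 6.48% were higher and 8.42% lower with estradiol, and 6.88% and 8.76% with ERα17p. DDX60, a helicase, stood at −0.85 with vehicle, 0.25 with estradiol and 0.01 with ERα17p, and so differed from vehicle by 1.10 and 0.86. NT5C3A, a nucleotidase, stood at 0.86 and 0.96, PNPT1, a mitochondrial RNA exonuclease, at 0.70 and 0.72, and PARP12 at −0.38 and −0.75. PLSCR1, a phospholipid scramblase, stood at 0.53 ± 0.46 and 0.60 ± 0.63 (SD, n = 3), and TRIM5, a restriction factor of retroviruses, at 0.53 ± 0.10 and 0.69 ± 0.04 (SD, n = 2). The median of this list was 0.11 and 0.05. Of 11 antigen presentation partners, 0 were higher with estradiol and 1 was lower, against 1 and 2 with ERα17p. CALR, a chaperone of the loading complex, stood at −0.69 ± 0.50 and −0.77 ± 0.42 (SD, n = 3), and NLRC5, an activator of these genes, at −0.57 and −0.76. ERAP2, a peptidase that trims peptides for loading, stood at 0.57 ± 0.50 and 0.59 ± 0.64 (SD, n = 5).

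Promoter sequence was available for 37 of the measured members, with 1 window of 300 bases per gene at the first listed start, 250 before it and 50 after. The ISRE core on either strand was found in 24 of 37, 64.9%, where 3.65% of 27305 genes had it. The GAS letters were found in 9, 24.3%, beside 7.88%. In 4 members, BST2, EPSTI1, IFI27 and IFITM1, a GAS match overlapped an ISRE match. GGG, any 2 bases and TTTCC, an NF-κB type site, was found in 3, IFIH1, OAS3 and TAP1, beside 1.92%. This is 1 fixed pattern, so members without it, IRF1 among them, may still hold NF-κB sites of other letters. GGTCA, any 3 bases and TGACC, an estrogen response element added to the search after the data were seen, was found in 0 members and in 0.0659% of genes. At any listed start of a gene, the ISRE letters were found in 27 members, 73.0%, beside 4.38%, and the GAS letters in 12, 32.4%, beside 9.38%.

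The ISRE matches lay on both sides of the split. Of the 24 members with one, 5 were at least 1.5-fold higher than vehicle with estradiol and 8 lower, against 3 and 10 with ERα17p. Of the 13 without one, 0 were higher and 3 lower in each comparison. Of the 9 with GAS letters, 0 were higher in either comparison, and 5 and 6 were lower, among them IRF1, IRF9, IFI35, BST2 and IFITM1. The shares of all genes beside these counts are 6.48% higher and 8.42% lower with estradiol, and 6.88% and 8.76% with ERα17p. Many listed members are known ISRE genes, so their share of matches describes the list and not these arrays.

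**Figure D4:**
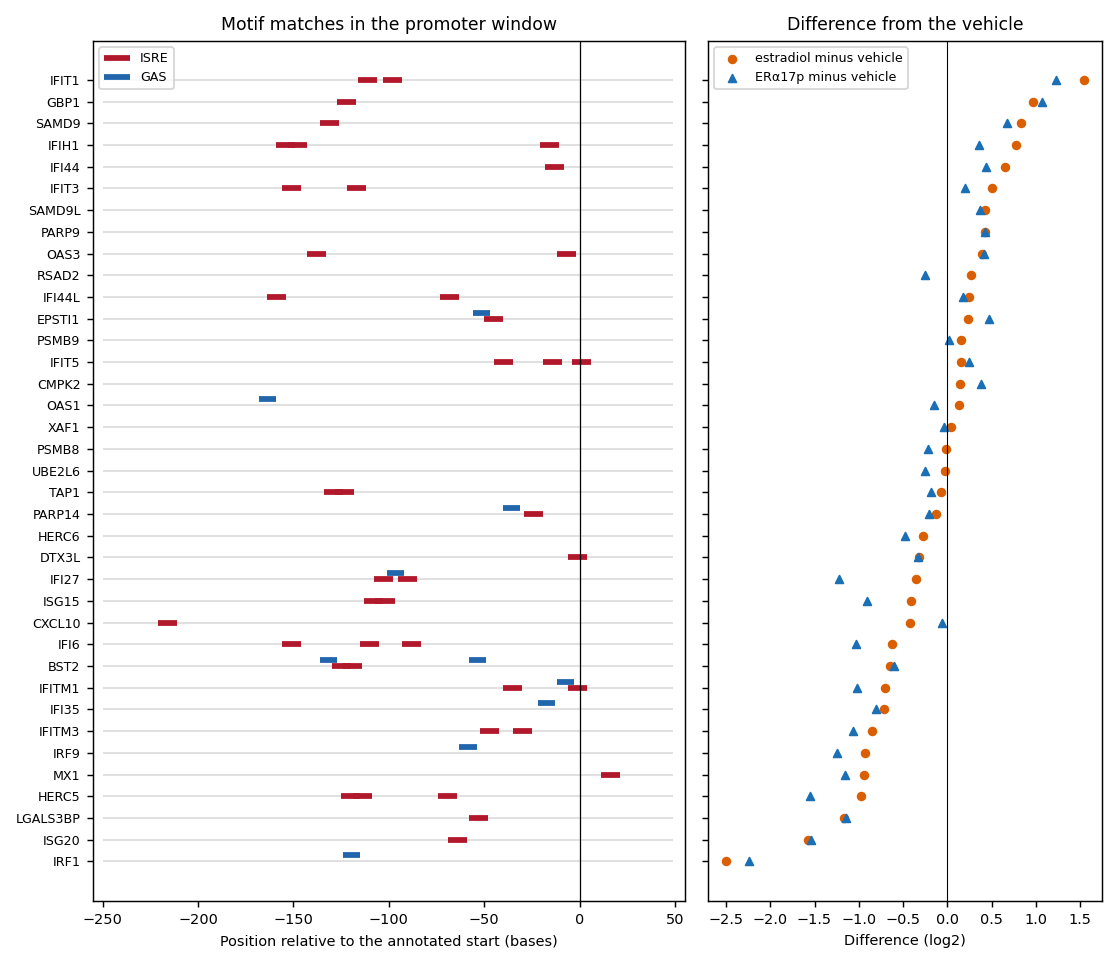
Left, matches to the ISRE (red) and GAS (blue) letters in the promoter windows of 37 members, by position in bases relative to the annotated start; right, each member's difference from vehicle (log2) for estradiol (circles) and ERα17p (triangles), in the same row order. ISRE matches occur at the top, as in IFIT1 at 1.55, and at the bottom, as in ISG20 at −1.57.

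The share of G and C in the same windows had its lowest median in the members higher than vehicle. It was 35.0% to 50.7% with a median of 39.7% in the 5 members higher with estradiol, and 47.7% to 73.7% with a median of 56.7% in the 11 lower members that had a window. For ERα17p the medians were 39.7% over 3 higher and 56.7% over 13 lower members. The 21 members that were neither had 32.7% to 75.3% in both comparisons. Their median was 55.7% for estradiol and 53.7% for ERα17p, close to that of the lower members. By these medians the few higher members stood apart from the rest. The median of members that were neither pools genes above and below vehicle, so it does not show whether the share varied among them. Across the 37 members Spearman's rank correlation between this share and the difference was −0.46 for estradiol and −0.52 for ERα17p, and Pearson's r was −0.50 and −0.52. Over 15384 genes Spearman's correlation was −0.11 and −0.12, and for ERα17p minus estradiol it was −0.09 over the members and −0.01 over all. Genes are not independent replicates, all points share the same arrays, and the differences of both treatments share the vehicle. The part of base composition in the differences was not tested.

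Members that neighbour each other on a chromosome formed 15 adjacent pairs holding 27 genes. All 3 listed genes of the IFITM cluster on chromosome 11 were at least 1.5-fold lower than vehicle in both comparisons. Of all genes 8.42% were with estradiol and 8.76% with ERα17p. The IFITM probe sets may read each other's transcripts, so these genes may not be separate signals. In the IFIT cluster on chromosome 10, 2 of 4 listed genes were at least 1.5-fold higher with estradiol and 1 of 4 with ERα17p, beside 6.48% and 6.88% of all genes. GBP1 and GBP2 on chromosome 1 had differences of opposite sign, 0.97 and −0.20 with estradiol and 1.07 and −0.38 with ERα17p. So had PARP9 and DTX3L, at 0.42 and −0.33 with ERα17p. MX1 and MX2 on chromosome 21 had the same sign but differed in size.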

How the data were processed

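Total RNA of 3 T47D samples was labelled with biotin and hybridised to 1 array each, per the labels' protocols. The authors deposited RMA values, taken here as log2 values; RMA is named in the submitters' processing notes, without a version. The deposited values lie around 0, with array medians of −0.0097, −2.48e-05 and −0.0029, so each probe set had been set against a baseline; neither its choice nor the log base was stated.

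Of 54675 probe sets, 62 controls, 1801 with several gene symbols and 11721 unnamed in the platform annotation were left out, leaving 41091. A gene's value is the mean over its probe sets. Members were counted as higher or lower at 1.5-fold (0.585 on the log2 scale) and read beside the same share of all genes. The members, lists, roles and thresholds were chosen with earlier results of these data known. Members described in full were those at least 2-fold different from vehicle, and the IFIT, IFITM, MX and IRF families, which hold one; IFIH1 and others were added after their values were seen. Of other lists, the genes named were among the 4 largest differences of a comparison, not all of which are named, apart from IFNAR1, IFNAR2 and RIGI, named for their roles, and PLSCR1 and TRIM5, named after their values were seen to complete a count. The number of arrays limits the precision. Promoter windows came from RefSeq (GRCh38.p14). The counting was tested on simulated data with the same noise on every array. That setting lacks the wider spread of the vehicle array, so it checks the counting only. Alternatives were the median of probe sets, leaving out probe sets ending in _x_at or _s_at, sizes of 2-fold and 0.32 on the log2 scale, median centring, counting probe sets, and requiring all probe sets. Python 3.11.15, numpy 2.4.6, pandas 2.3.3 and matplotlib 3.10.9 were used.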

Additional observations from a re-analysis of the deposited data

How the results depend on the processing

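No paired analysis was possible because each treatment had 1 array. Taking the median of probe sets changed no count of 1.5-fold members. The median over the members for ERα17p minus vehicle, −0.18 over genes, was −0.06 without probe sets ending in _x_at or _s_at and −0.03 over probe sets. Without probe sets ending in _x_at or _s_at the lower members were 8 for estradiol and 9 for ERα17p against vehicle, over 37 members. At 2-fold, 1 member was higher and 3 were lower for estradiol, 2 were higher for ERα17p, and 0 were lower for ERα17p minus estradiol. At 0.32 on the log2 scale, 11 and 12 were higher than vehicle for estradiol and ERα17p (16.4% and 16.6% of all genes) and 16 and 18 were lower (19.8% and 19.2%), and for ERα17p minus estradiol 1 was higher and 7 were lower. Counted as probe sets, 15 and 13 of 74 were higher than vehicle for estradiol and ERα17p (10.4% and 10.5% of all probe sets) and 16 and 19 were lower (9.99% and 10.1%), a more even split than over genes. For ERα17p minus estradiol 1 was higher, 3 were lower and 52 of 74 lay below 0, where 48.8% of all probe sets did. Requiring all probe sets left 2 higher members for each comparison with vehicle, a rule that members with 1 probe set cannot fail once they pass 1.5-fold. Centring made 2 members lower for ERα17p minus estradiol, IFI27 and HERC5. The median for estradiol minus vehicle was 0.03 over probe sets, −0.06 with the median of probe sets and −0.03 in the main analysis. The vehicle array cannot be left out of its own comparisons, and signal over background is unknown.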
